A study of Anser cygnoides with 12 samples.

Results

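The genes described here are the named conjugation enzymes and aldehyde dehydrogenases of the goose jejunum. They were chosen by gene name from the deposited table, as every name that begins with CYP1 to CYP4, GST, UGT, SULT or ALDH in the usual form of these families. The rule gave 22 of 18007 genes: 3 glutathione S-transferases (GST), 2 UDP-glycosyltransferases (UGT), 4 cytosolic sulfotransferases (SULT) and 13 aldehyde dehydrogenases (ALDH). It gave 0 cytochrome P450 genes, because no gene name of the table starts with CYP. Of the 6374 genes that the table names only by a LOC number, 51 are described as belonging to these 5 families. Of these, 26 are described as P450 of CYP1 to CYP4. P450 genes outside CYP1 to CYP4 and microsomal GST were not looked for, and the 51 are no members. The members are therefore called here by their own families, and nothing is said of P450 genes from them.

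RNA of the jejunum was sequenced from 12 female Sichuan white geese, 4 in each of 3 diets, drawn at random from the 10 geese of each diet. All geese were 250 days old when the trial began and were fed for 12 weeks. The Con geese received a basal diet of corn and soybean meal, the LWG geese a diet with 21.8% wheat germ and the HWG geese a diet with 43.6% wheat germ, so that the other ingredients changed together with the wheat germ. A fold change below is LWG over Con, HWG over Con or HWG over LWG.

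These enzymes make small foreign and internal compounds easier to excrete. A P450 or another oxidising enzyme first opens a reactive group, and GST, UGT and SULT enzymes then attach glutathione, a sugar acid or sulfate, while ALDH enzymes oxidise reactive aldehydes to acids. The intestine is, after the liver, a main place of this chemistry, but several genes with these family names serve other pathways, such as the breakdown of amino acids or the synthesis of retinoic acid.

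Totals of the deposited counts were alike, from 40159187 to 45686956 per library. The libraries differed in the transcription factors GATA4 and HOXA10, which in mouse mark the upper and the lower gut. GATA4 had the higher FPKM of the pair (fragments scaled by transcript length and by the mapped fragments of the library) in 7 libraries, 2 of Con, 2 of LWG and 3 of HWG, and HOXA10 had it in the other 5, 2 of Con, 2 of LWG and 1 of HWG. The log2 ratio of GATA4 to HOXA10 ran from 5.30 to 7.20 in the 7 libraries and from -7.04 to -2.79 in the 5, so the libraries form separate clusters although all carry the label jejunum. Of 12 enterocyte markers, 8 were in the table and none was at 0 in all 12 libraries. Their summed FPKM ran from 1130 to 3510 in Con, from 2920 to 8120 in LWG and from 1070 to 4220 in HWG libraries. Of 7 smooth muscle markers, 4 were in the table and again none was at 0 in all 12 libraries. Their summed FPKM ran from 799 to 4580 in Con, from 1430 to 3820 in LWG and from 1150 to 9190 in HWG libraries. In bulk tissue, fewer cells of a type and less RNA per cell cannot be told apart.

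The level of the members spanned a wide range. ALDH9A1, which makes the carnitine precursor trimethylaminobutyrate from its aldehyde, was the highest member, with a mean of 514 FPKM over the 12 libraries and a range of 310.3 to 849. GSTZ1, a maleylacetoacetate isomerase of tyrosine breakdown despite its family name, followed with 143 FPKM and a range of 58.1 to 298. SULT1B1, which in human gut sulfates phenols and thyroid hormones, averaged 119.8 FPKM and ran from 59.0 to 179.9. No library held less than 58.1 FPKM of any of these 3 genes.

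ALDH2, the mitochondrial enzyme that clears acetaldehyde, averaged 84.6 FPKM, UGT8, which adds galactose to ceramide in the synthesis of myelin-type lipids, 70.5 FPKM, and ALDH6A1, of valine breakdown, 51.9 FPKM. UGT2B17, which in human glucuronidates steroid hormones, averaged 51.7 FPKM. ALDH5A1, of the breakdown of the transmitter GABA, averaged 46.2 FPKM, ALDH7A1, of lysine breakdown, 35.6 FPKM, and ALDH1A3, of retinoic acid synthesis, 34.6 FPKM. The middle of the list was therefore held by enzymes of amino acid, lipid and retinoid metabolism as well as by conjugation enzymes.

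GSTK1, a GST of mitochondria and peroxisomes, averaged 28.0 FPKM, while ALDH4A1, of proline breakdown, and ALDH18A1, of proline synthesis, averaged 18.1 and 17.8 FPKM. The other retinoic acid enzymes ALDH1A2 and ALDH1A1 averaged 7.58 and 4.68 FPKM, SULT4A1, known from brain, 5.37 FPKM, and ALDH1L2, of mitochondrial folate metabolism, 5.28 FPKM. The lowest members were ALDH8A1 with 3.09 FPKM, SULT2B1, a sulfotransferase of cholesterol and other hydroxysteroids, with 2.05 FPKM, GSTCD with 1.78 FPKM and ALDH3B1 with 1.73 FPKM. SULT6B1 held 17 counts in all, was at 0 in 10 libraries and was not tested, so the tests cover 21 members. GSTCD overlaps NPNT, a gene of 18.7 FPKM on the same strand, and ALDH3B1, UGT8 and ALDH6A1 overlap genes on the opposite strand, so reads of these pairs may be mixed in their values.

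**Figure D1:**
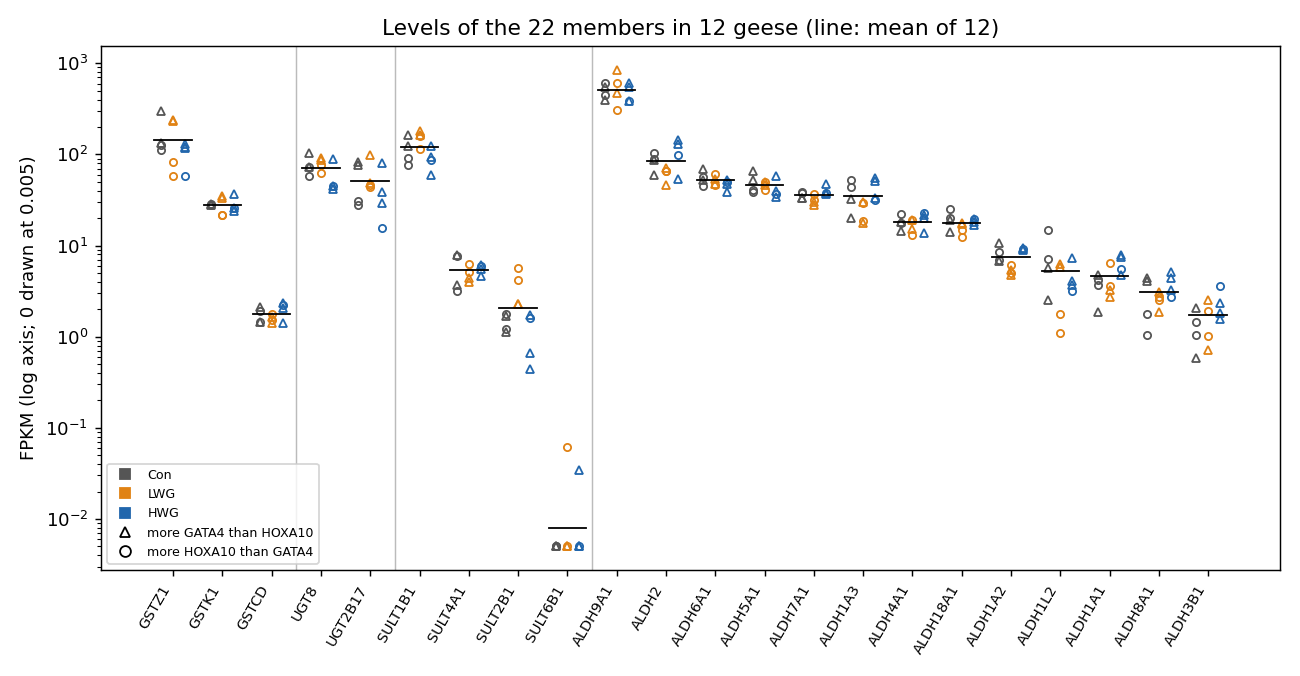
FPKM of each member in each of the 12 libraries on a log axis, grouped as GST, UGT, SULT and ALDH, with Con, LWG and HWG points side by side in each column and a line at the mean of the 12 libraries. Triangles are libraries with more GATA4 than HOXA10 and circles the others. ALDH9A1 lies highest, with a mean of 514 FPKM, and SULT6B1 lies lowest, at 0 in 10 libraries.

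The members differed as much in how evenly the geese expressed them. The SD of log2 CPM within diets (CPM, a count after TMM scaling, brought to a common library size) was 0.147 for ALDH7A1 and 0.22 for ALDH1A2, against 1.01 for ALDH1L2, 0.92 for UGT2B17 and 0.86 for GSTZ1. Its median was 0.44 over the 21 members, beside 0.40 over all tested genes. ALDH1L2 had 30.0, 34.1, 14.9 and 69.8 CPM in Con libraries, 5.37, 9.60, 35.4 and 37.6 CPM in LWG libraries and 20.6, 35.4, 20.4 and 14.7 CPM in HWG libraries, so that geese of a single diet differed by several-fold. ALDH7A1 had 73.0, 76.9, 82.9 and 75.7 CPM in Con libraries, 64.8, 81.5, 71.1 and 74.7 CPM in LWG libraries and 99.3, 74.8, 83.7 and 73.6 CPM in HWG libraries, where only HWG replicate 1 stood clearly above the others.

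The first comparison asks what the low dose of wheat germ changed. By edgeR's quasi-likelihood test, with p-values adjusted by the Benjamini-Hochberg method over 14863 genes, none of the 21 members had an adjusted p under 0.05 in LWG against Con, where 0% of all tested genes did, and DESeq2 also called 0 members, with 0.249% of all tested genes called. At an unadjusted p under 0.05 there were 2 members, SULT2B1 and ALDH1A2, beside 6.63% of all tested genes. Both also had CPM that did not overlap between LWG and Con geese, as 2.87% of all tested genes did. The median log2 fold change of the members was -0.011 (all tested genes, 0.0075), with 10 members above and 11 below 0.

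SULT2B1 had 8.28, 6.62, 4.09 and 4.06 CPM in LWG libraries, against 1.76, 2.53, 3.01 and 1.70 CPM in Con libraries. All 4 LWG geese lay above all 4 Con geese, and the LWG libraries with more HOXA10, replicates 1 and 2, were the highest. The mean was 5.76 ± 2.06 CPM in LWG and 2.25 ± 0.63 CPM in Con geese (SD, n = 4 each), with a log2 fold change of 1.36 (SE 0.44), an unadjusted p of 0.00832 and an adjusted p of 0.652 (edgeR). Within the libraries with more GATA4 the mean was 4.07 CPM in LWG and 2.38 CPM in Con geese, and within those with more HOXA10 it was 7.45 CPM in LWG and 2.11 CPM in Con geese (n = 2 each). The table describes LOC106046522 as similar to SULT2B1. It averaged 5.24 CPM in Con, 5.13 CPM in LWG and 9.02 CPM in HWG geese, without the high LWG level of SULT2B1. Its log2 fold change was -0.03 (SE 0.43) in LWG against Con and 0.81 (SE 0.44) in HWG against LWG. Their sequences were not compared, and whether reads were split between them is not known.

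ALDH1A2, which makes retinoic acid from retinal, had 24.5, 32.6, 28.1 and 31.7 CPM in LWG libraries, against 56.1, 40.6, 39.5 and 32.6 CPM in Con libraries. The LWG values lay together below the Con values, with LWG replicate 2 and Con replicate 4 almost touching. The log2 fold change was -0.53 (SE 0.17, unadjusted p = 0.00842, adjusted p = 0.652, edgeR). The gene overlaps 2 LOC genes on the opposite strand that averaged 0.128 and 0.518 FPKM. The first, LOC106033700, is itself described as aldehyde dehydrogenase 1 family member A2, and whether reads were split between them is not known. Whether the counting used the strand is not given in the sources used here. Without Con replicate 3, 4 members rather than 2 had an unadjusted p under 0.05, and the share of all tested genes at that threshold was 12.8% rather than 6.63%.

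By family, 2 of 3 GST, 2 of 2 UGT, 2 of 3 tested SULT and 4 of 13 ALDH members had a log2 fold change above 0 in LWG against Con, and none of them other than SULT2B1 and ALDH1A2 had an unadjusted p under 0.05. The estimate farthest from 0 among those others was -0.76 (SE 0.58) for ALDH1L2, whose geese varied most. SULT1B1 had 266.0, 391.8, 459.9 and 494.3 CPM in LWG libraries, against 299.1, 201.3, 448.9 and 170.4 CPM in Con libraries, and the groups overlapped (log2 fold change 0.53, SE 0.33).

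The second comparison asks the same of the high dose. None of the 21 members had an adjusted p under 0.05 in HWG against Con by edgeR, where 0% of all tested genes did, and DESeq2 called 0 members, with 0.0336% of all tested genes called. At an unadjusted p under 0.05 there was 1 member, ALDH1A1, beside 4.16% of all tested genes, and ALDH1A1 was also the single member whose CPM did not overlap between HWG and Con, as in 2.31% of all tested genes. The median log2 fold change of the members was -0.053 (all tested genes, -0.0099), with 9 members above and 12 below 0.

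ALDH1A1, a retinal dehydrogenase of the cytosol, had 20.1, 18.3, 13.4 and 13.1 CPM in HWG libraries, against 12.8, 10.2, 5.66 and 8.87 CPM in Con libraries. The lowest HWG goose stood just above the highest Con goose. The mean was 16.2 ± 3.53 CPM in HWG and 9.36 ± 2.95 CPM in Con geese (SD, n = 4 each), and the log2 fold change was 0.79 (SE 0.30, unadjusted p = 0.0197, adjusted p = 0.939, edgeR). With the smooth muscle gene MYH11 as a covariate, chosen after seeing the data, it was 0.63 with an unadjusted p of 0.0742. It was 0.66 with the enterocyte gene CDH17 (unadjusted p = 0.0249) and 0.81 with the GATA4 to HOXA10 ratio (unadjusted p = 0.0193, edgeR). MYH11 had 5513, 8715, 1872 and 4508 CPM in HWG libraries and 2461, 2751, 1747 and 5346 CPM in Con libraries, and its part in the result was not tested further. The number of members at an unadjusted p under 0.05 was 0 without Con replicate 3 or HWG replicate 1 (4.23% and 2.69% of all tested genes), 2 without Con replicate 1 (3.15%) and 3 without HWG replicate 3 (1653 of 15079 genes), so the count moved with single geese, and without HWG replicate 3 the share of all genes moved with it.

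Both UGT members and all 3 tested SULT members had a log2 fold change below 0 in HWG against Con, and 8 of 13 ALDH members had one above 0, none with an adjusted p under 0.05. UGT8 had 110.3, 112.8, 255.0 and 110.3 CPM in HWG libraries, against 201.9, 145.9, 320.7 and 184.4 CPM in Con libraries. HWG replicate 3 lay among the Con geese and the other 3 HWG geese below all of them (log2 fold change -0.54, SE 0.32).

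**Figure D2:**
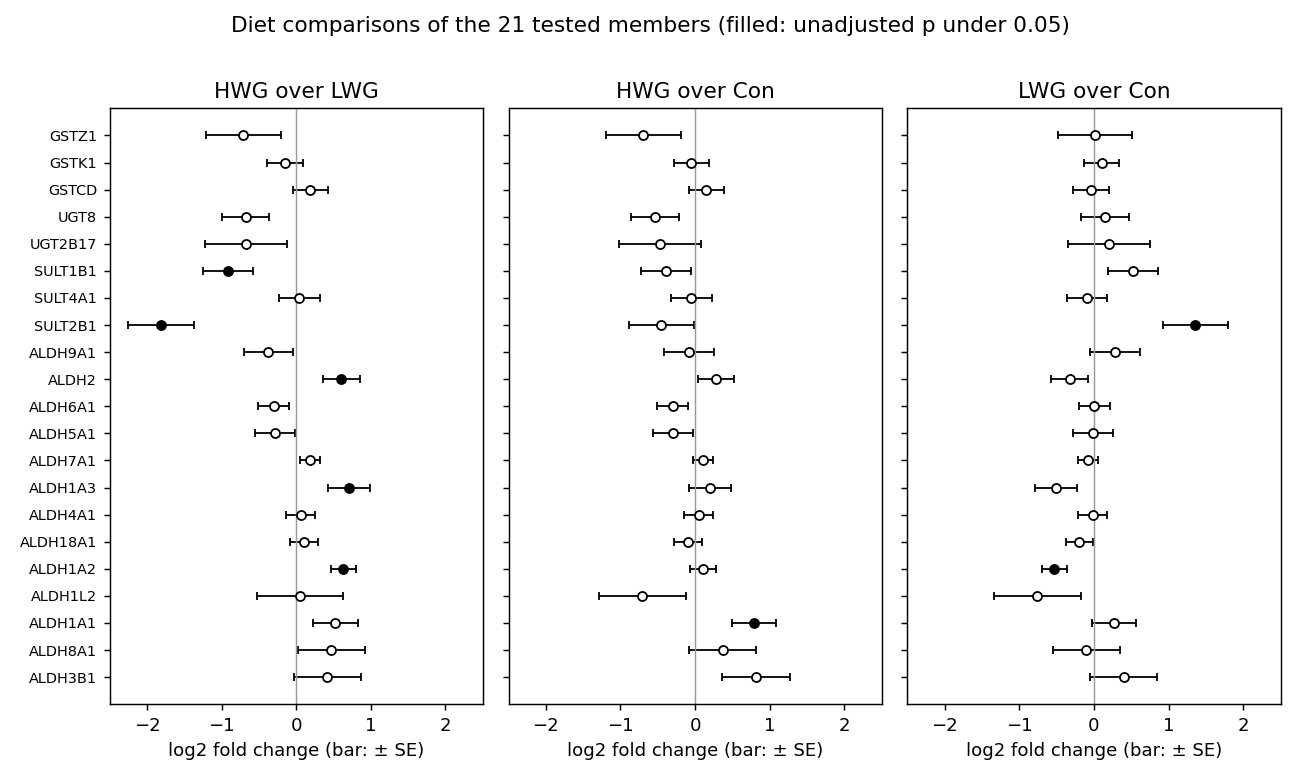
Log2 fold changes of the 21 tested members in HWG over LWG, HWG over Con and LWG over Con, with bars of ± 1 SE from the edgeR fit of 12 libraries and filled points at an unadjusted p under 0.05. The 5 filled points of HWG over LWG are SULT1B1, SULT2B1, ALDH2, ALDH1A3 and ALDH1A2, and no member reached an adjusted p under 0.05 in a diet comparison.

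The third comparison sets the doses against each other. By edgeR none of the 21 members had an adjusted p under 0.05 in HWG against LWG, where 0% of all tested genes did, while DESeq2 called SULT2B1 (log2 fold change -1.82, adjusted p = 0.0142) and 0.76% of all tested genes. At an unadjusted p under 0.05 there were 5 members, beside 10.6% of all tested genes: SULT2B1 and SULT1B1 with lower and ALDH1A2, ALDH1A3 and ALDH2 with higher estimates in HWG. SULT2B1 and ALDH1A2 had CPM that did not overlap between HWG and LWG geese, as 4.39% of all tested genes did. The count of 5 was 2 without HWG replicate 2 (6.92% of all tested genes) and 3 without LWG replicate 4 (8.54%). The LWG libraries enter this comparison and that with Con, so SULT2B1 and ALDH1A2 standing out in both rests on shared libraries.

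SULT2B1 had 2.59, 0.642, 1.08 and 2.25 CPM in HWG libraries, against the 8.28, 6.62, 4.09 and 4.06 CPM in LWG libraries given above. The highest HWG goose lay below the lowest LWG goose. The log2 fold change was -1.81 (SE 0.44, unadjusted p = 0.00129, adjusted p = 0.338, edgeR). Within the libraries with more GATA4 the mean was 1.44 CPM in HWG (n = 3) and 4.07 CPM in LWG geese (n = 2), and the single HWG library with more HOXA10 had 2.25 CPM, against a mean of 7.45 CPM in LWG geese (n = 2).

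SULT1B1 had 220.2, 131.1, 314.8 and 189.9 CPM in HWG libraries, against 266.0, 391.8, 459.9 and 494.3 CPM in LWG libraries, and only HWG replicate 3 reached into the LWG values (log2 fold change -0.91, SE 0.33, unadjusted p = 0.0168, edgeR). With the enterocyte gene CDH17 as a covariate, chosen after seeing the data, the log2 fold change was -0.47 with an unadjusted p of 0.0625. It was -0.75 with MYH11 (unadjusted p = 0.0158) and -1.01 with the GATA4 to HOXA10 ratio (unadjusted p = 0.00326, edgeR). CDH17, a cadherin of intestinal epithelium, had 435.6, 448.0, 1176 and 510.4 CPM in HWG libraries and 710.5, 644.2, 1155 and 1210 CPM in LWG libraries, so that HWG replicate 3 was high in both genes.

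The members with the higher estimates in HWG were aldehyde dehydrogenases. ALDH1A2 had 44.6, 44.2, 49.95 and 42.7 CPM in HWG libraries, against 24.5, 32.6, 28.1 and 31.7 CPM in LWG libraries, with every HWG goose above every LWG goose. The mean was 45.4 ± 3.17 CPM in HWG and 29.2 ± 3.70 CPM in LWG geese (SD, n = 4 each), and the log2 fold change was 0.63 (SE 0.17, unadjusted p = 0.00266, adjusted p = 0.338, edgeR). In the libraries with more GATA4, ALDH1A2 averaged 46.2 CPM in HWG (n = 3) and 29.9 CPM in LWG geese (n = 2), so the difference was as large there as over all 8 geese.

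ALDH1A3 had 125.0, 178.2, 218.8 and 109.3 CPM in HWG libraries, against 105.7, 72.4, 132.7 and 76.1 CPM in LWG libraries, and the groups overlapped through LWG replicate 3 (log2 fold change 0.71, SE 0.28, unadjusted p = 0.0266, edgeR). ALDH2 had 261.8, 278.1, 117.9 and 182.1 CPM in HWG libraries, against 130.3, 141.5, 171.4 and 109.0 CPM in LWG libraries, and HWG replicate 3 lay inside the LWG range. Its log2 fold change was 0.61 (SE 0.25, unadjusted p = 0.0292, edgeR), and 0.25 with an unadjusted p of 0.304 with CDH17 as a covariate. It was 0.35 with MYH11 (unadjusted p = 0.133) and 0.61 with the GATA4 to HOXA10 ratio (unadjusted p = 0.0334, edgeR). Of the 13 ALDH members 10 had a log2 fold change above 0 in HWG against LWG, while both UGT members had one below 0, -0.68 (SE 0.32) for UGT8 and -0.67 (SE 0.55) for UGT2B17.

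**Figure D3:**
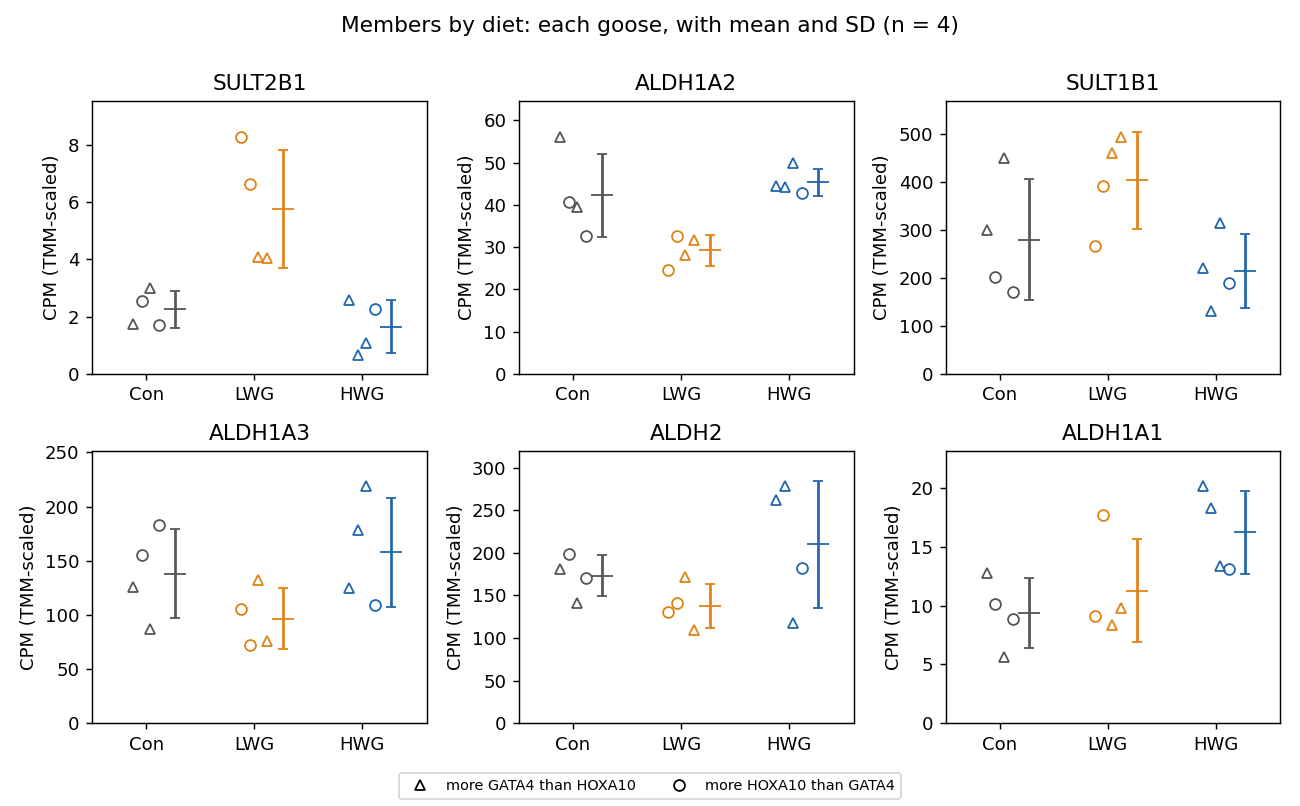
CPM of each goose in Con, LWG and HWG for the 6 members with an unadjusted p under 0.05 in a diet comparison, each with the mean and SD of 4 geese beside the points, on axes that start at 0. Triangles are libraries with more GATA4 than HOXA10 and circles the others. The LWG geese lie highest in SULT2B1, from 4.06 to 8.28 CPM, and lowest in ALDH1A2, from 24.5 to 32.6 CPM.

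The genes of retinoic acid synthesis can be read side by side over the 3 diets. ALDH1A2 averaged 42.2 ± 9.93 CPM in Con, 29.2 ± 3.70 CPM in LWG and 45.4 ± 3.17 CPM in HWG geese, ALDH1A3 averaged 138 ± 41.0 CPM in Con, 96.8 ± 28.2 CPM in LWG and 158 ± 50.2 CPM in HWG geese, and ALDH1A1 averaged 9.36 ± 2.95 CPM in Con, 11.3 ± 4.35 CPM in LWG and 16.2 ± 3.53 CPM in HWG geese (SD, n = 4 each). ALDH1A2 and ALDH1A3 thus had their lowest mean at the low dose, and ALDH1A1 had its lowest mean in Con. LWG replicate 2, with 17.7 CPM, was the highest LWG goose for ALDH1A1, and the other 3 LWG geese lay within the Con range.

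The members were then set against the GATA4 to HOXA10 ratio. With diet in the model, edgeR gave each gene a slope, its log2 change per doubling of that ratio. A negative slope means a higher level in libraries with more HOXA10. Because the libraries form clusters at either end, the slope rests on the difference between these clusters. Of the 21 tested members, 2 had an adjusted p under 0.05, GSTZ1 and UGT2B17, where 3.4% of all tested genes in either direction and 2.51% with a positive slope did. At an unadjusted p under 0.05 there were 7 members, beside 20.3% of all tested genes, and all 7 slopes were positive, where 11.6% of all tested genes were positive and 8.73% negative at that threshold. In this fit the share of members was above the background, but their number is small and no test of the list was made. With limma on log2(FPKM + 0.1) the share at an unadjusted p under 0.05 was below it, with 3 members beside 29.3%. It was also below with the replicate number as a block, with 3 members beside 18.3%. Fits without single libraries gave 5 to 7 members, beside 15.9% to 21.6% of all tested genes. The median slope of the members was 0.015 (all tested genes, -0.0024), with 15 members above and 6 below 0.

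GSTZ1 had 376, 192, 334, 341, 159, 141 and 155 CPM in the 7 libraries with more GATA4 (Con replicates 1 and 3, LWG replicates 3 and 4, HWG replicates 1, 2 and 3), against 146, 128, 69.2, 106.2 and 65.4 CPM in the 5 with more HOXA10 (Con replicates 2 and 4, LWG replicates 1 and 2, HWG replicate 4). Only Con replicate 2 reached above the lowest library with more GATA4. GSTZ1 rose by 0.12 log2 per doubling (SE 0.019, adjusted p = 0.00994, edgeR). Within each diet the libraries with more GATA4 lay above the others, by the widest margin in LWG. The call was lost with the axis alone, without diet (adjusted p = 0.083), and with CDH17 as a further covariate (adjusted p = 0.0837, slope 0.12), where 0.323% and 0.141% of all tested genes were called.

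UGT2B17 had 328, 406, 243, 488, 160.3, 116 and 362 CPM in the 7 libraries with more GATA4, in the same order of geese, against 123, 108.9, 179.5, 203 and 59.9 CPM in the 5 with more HOXA10. HWG replicates 1 and 2 lay among the libraries with more HOXA10, and the other 5 libraries with more GATA4 lay above them. UGT2B17 rose by 0.12 log2 per doubling (SE 0.024, adjusted p = 0.021, edgeR). The adjusted p was 0.0574 without Con replicate 2, 0.0591 without Con replicate 4, 0.06 without LWG replicate 4 and 0.0917 without HWG replicate 4. The call was lost in each of these fits, while the slope was still 0.12. Of all tested genes, 0.918% to 1.35% were called in these fits, against 3.4% in the main fit. Without LWG replicate 2 the share was 1.33%, and UGT2B17 was still called (adjusted p = 0.0243, edgeR). The adjusted p of UGT2B17 was 0.144 without diet in the model and 0.25 with CDH17, where the slope was 0.078.

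CDH17 itself had 755, 1164, 1155, 1210, 435.6, 448.0 and 1176 CPM in the libraries with more GATA4, again in that order, and 554, 536, 710.5, 644.2 and 510.4 CPM in those with more HOXA10. The HWG geese 1 and 2, low in UGT2B17, were the lowest in CDH17. The summed FPKM of the 8 enterocyte markers ran from 1070 to 8120 in the libraries with more GATA4 and from 1090 to 3000 in those with more HOXA10. No marker of the 8 was at 0 in all 12 libraries. With the smooth muscle gene MYH11 as a further covariate in place of CDH17, GSTZ1 and UGT2B17 were both still called by edgeR. GSTZ1 then had a slope of 0.12 (adjusted p = 0.00727) and UGT2B17 one of 0.11 (adjusted p = 0.0144). In that fit 3.4% of all tested genes were called. How much of the slopes the amount of epithelium or muscle carries was not tested beyond the CDH17 and MYH11 covariates.

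The other 5 members at an unadjusted p under 0.05 were ALDH8A1, GSTK1, ALDH5A1, UGT8 and SULT1B1, with slopes of 0.079, 0.039, 0.042, 0.049 and 0.049 and adjusted p from 0.117 to 0.179 by edgeR. ALDH8A1, an enzyme of tryptophan breakdown, had a median of 10.2 CPM (5.36 to 13.5) in libraries with more GATA4 and 6.13 CPM (2.37 to 6.49) in those with more HOXA10, where the ranges overlapped through LWG replicate 4, and DESeq2, which called 10.1% of all tested genes on the ratio, called it. GSTK1 had a median of 40.3 CPM (27.3 to 50.3) in libraries with more GATA4 and 29.0 CPM (25.6 to 32.4) in those with more HOXA10. SULT1B1 had a median of 315 CPM (131.1 to 494.3) in libraries with more GATA4 and 201.3 CPM (170.4 to 391.8) in those with more HOXA10.

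In no member were the libraries with more GATA4 apart from those with more HOXA10 without overlap, while 1.18% of all tested genes were. By family, 3 of 3 GST, 2 of 2 UGT, 1 of 3 tested SULT and 9 of 13 ALDH members had a positive slope, and the negative slopes ran down to -0.038 (SE 0.031) for SULT2B1. The high members ALDH9A1 and ALDH2 had slopes of 0.033 (SE 0.022) and -0.0003 (SE 0.019), and ALDH2 had an unadjusted p under 0.05 on the ratio with CDH17 as a further covariate. UGT2B17 and SULT1B1 are neighbours on the same strand, 3492 bases apart in the table.

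**Figure D4:**
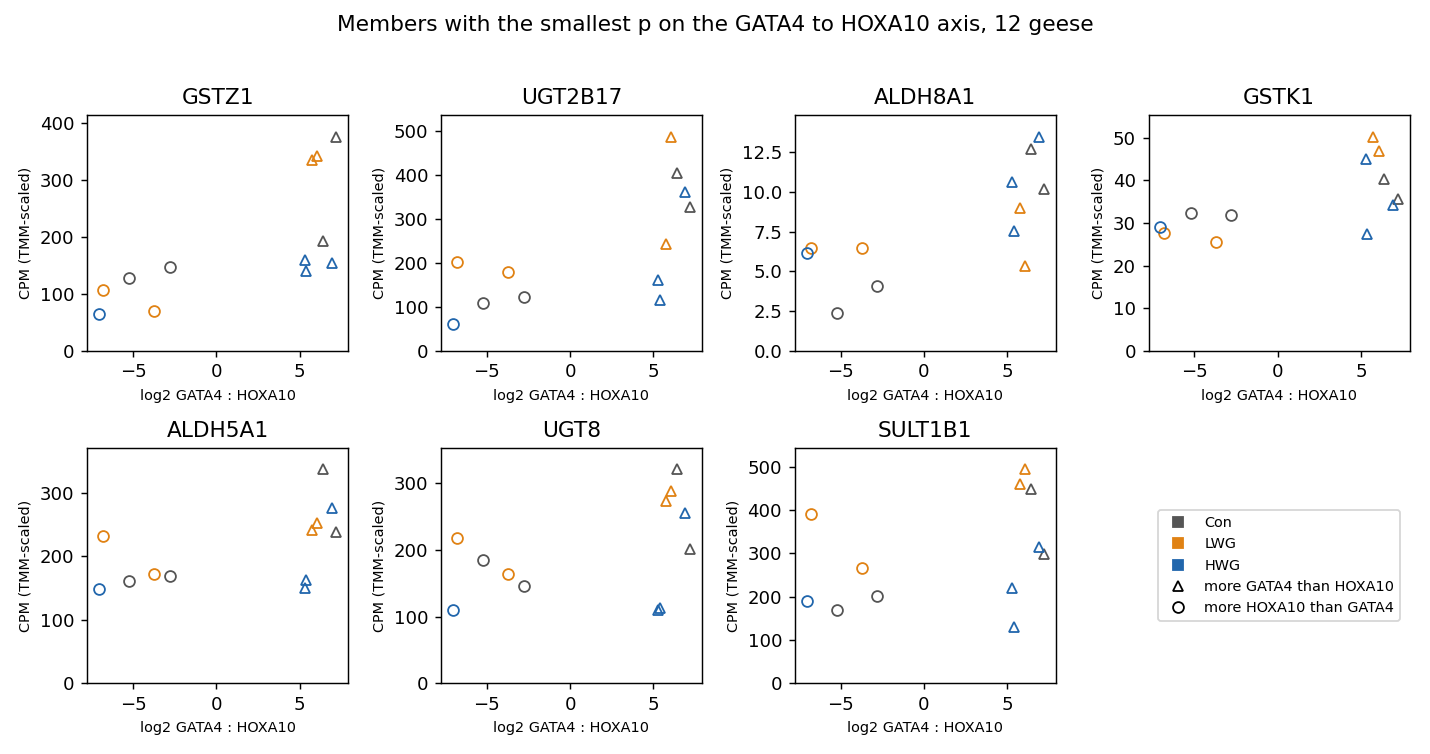
CPM of the 7 members with an unadjusted p under 0.05 on the ratio of GATA4 to HOXA10, each against the log2 ratio of the library, coloured by diet. The 7 libraries with more GATA4 lie at 5.30 or above and the 5 with more HOXA10 at -2.79 or below, with none between. In GSTZ1 the libraries with more GATA4 run from 141 to 376 CPM and the others from 65.4 to 146 CPM.

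The enzymes that supply and accompany these families were read from lists of named genes. Of 12 genes for P450 partners and cofactors, 8 were tested and 1 had an adjusted p under 0.05 on the ratio. It was UGDH, which makes UDP-glucuronic acid for the UGT enzymes (slope 0.066, SE 0.016, adjusted p = 0.0497, edgeR). Of all tested genes, 3.4% in either direction and 2.51% with a positive slope had an adjusted p under 0.05. All 8 slopes of that list were positive and 6 had an unadjusted p under 0.05, where 11.6% of all tested genes were positive at that threshold. Of 17 genes of other oxidation and hydrolysis, 10 were tested and 1 had an adjusted p under 0.05, the aldehyde reductase AKR1A1 (slope 0.078, SE 0.016, adjusted p = 0.0283, edgeR), with 4 at an unadjusted p under 0.05, all positive, beside the same 11.6%. Of 12 regulators 9 were tested, with 2 positive and 1 negative slopes at an unadjusted p under 0.05. Of 11 carriers 8 were tested, with 2 in each direction at that threshold. Beside these, 11.6% of all tested genes had a positive and 8.73% a negative slope there. The regulators and the carriers each had 0 at an adjusted p under 0.05. No gene of the 4 lists had an adjusted p under 0.05 in a diet comparison by edgeR, where 0% of all tested genes did.

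UGDH had 427, 386, 445, 559, 199.8, 190.6 and 363 CPM in the 7 libraries with more GATA4 and 189, 216, 243, 351 and 164.5 CPM in the 5 with more HOXA10. As in UGT2B17, HWG replicates 1 and 2 were the low libraries among those with more GATA4.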

How the data were processed

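The members and the companion lists were chosen with earlier results of these data known. Whole-number counts and FPKM values per gene and goose were deposited by the authors, who used fastp, HISAT2, StringTie and edgeR on paired reads. Tool versions, the use of strand and the making of the counts are not given in the sources used here. Counts of 4 occurred 3148 times, against 1250 for 3 and 1052 for 5, so a count may not be a single read pair. No counting interval is therefore given, and errors are those between geese. No pair among 66 pairs of libraries held the same values.

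Counts were tested in R 4.3.3 with edgeR 4.0.16 (filterByExpr, TMM, quasi-likelihood F-test) in a fit of all 12 libraries with diet as the only factor. This left 14863 genes. For the slope, log2((GATA4 FPKM + 0.1)/(HOXA10 FPKM + 0.1)) was added, and GATA4 and HOXA10 were not counted, which left 14861. Genes were called at an adjusted p under 0.05 (Benjamini-Hochberg). Scripts were tested on simulated data. Levels between genes are compared in FPKM and geese in TMM-scaled CPM.

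Named with values were up to 8 members with the smallest p among those at an unadjusted p under 0.05 in a diet comparison, members called on the slope, the 3 highest members of each family, and up to 3 genes of each companion list in each comparison at an unadjusted p under 0.05. Other members were named to describe levels, spread and families after their values were seen. Names were matched to a RefSeq table of the Taihu goose assembly: 22 of 22 gene numbers matched, 17 with the same symbol, while UGT2B17, SULT1B1, SULT2B1, ALDH18A1 and ALDH3B1 have a LOC number there. No positions are given, since the assembly of the deposited scaffolds is not settled. Alternatives were limma 3.58.1 on log2(FPKM + 0.1) or log2(FPKM + 1), DESeq2 1.42.0, DESeq2 size factors, no filter, counts divided by 4, pairs of groups alone, the replicate number as a block, covariates, other axes and each library left out. Tables and plots used Python 3.11.15 and matplotlib 3.10.9.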

Additional observations from a re-analysis of the deposited data

Results flagged for a closer look

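In each diet the highest or lowest goose of the 21 tested members was compared with its neighbours, 63 groups of 4 geese in all, and 3 values, from 2 geese, stood far from the other 3 of their diet. Chance alone flags about 1 in 20 such groups. ALDH5A1 had 276 CPM in HWG replicate 3, against 149.6, 162.5 and 148.1 CPM in the other HWG geese. UGT8 had 255 CPM in the same goose, against 110.3, 112.8 and 110.3 CPM in the other HWG geese. GSTZ1 had 65.4 CPM in HWG replicate 4, the single HWG library with more HOXA10 than GATA4, against 159.5, 140.7 and 154.6 CPM in the other HWG geese. No cause was tested.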

How the results depend on the processing

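All 200 values of named members under an alternative kept their direction. Of these, 190 kept their side of the threshold, 9 lost and 1 gained a call. These members were named for a small p in the same libraries, so the counts are no separate support. Only GSTZ1 and UGT2B17, on the slope, were called in the main fit. None of the 78 medians of the members moved by as much as the median SE of the members in the main fit. The median ran from -0.0795 to 0.228 in HWG against LWG, beside 0.052 in the main fit. In LWG against Con it ran from -0.0851 to 0.139, beside -0.011, and in HWG against Con from -0.111 to 0.0357, beside -0.0527. On the slope it ran from -0.000697 to 0.0218, beside 0.0154. Each of these medians changed sign under some alternative. No member was called in LWG or HWG against Con under any alternative run, where at most 0.249% of all tested genes were called. DESeq2 called 1 member, SULT2B1, in HWG against LWG and 3 on the slope (0.76% and 10.1% of all tested genes). Members at an unadjusted p under 0.05 numbered 2 to 4 without single libraries in LWG against Con, 0 to 3 in HWG against Con and 2 to 6 in HWG against LWG, and members called on the slope 1 to 2 (5 to 7 at an unadjusted p). With the GATA4 to HOXA10 ratio as a covariate the unadjusted counts were 3 in HWG against Con and 8 in HWG against LWG (7.63% and 17.4% of all genes), limma on log2(FPKM + 0.1) and on log2(FPKM + 1) gave 8 each in HWG against LWG (13.1% and 13.2%), and limma on log2(FPKM + 0.1) gave 3 on the slope (29.3%). The ratio without diet left 0 members and 48 genes called on the slope, against 506 genes with diet. With CDH17, chosen after seeing the data, there were 2 members at an unadjusted p in HWG against Con (3.77%), and on the slope 0 members and 21 genes called and 3 members at an unadjusted p (13.0%). A factor of more GATA4 or more HOXA10, also chosen after seeing the data, gave GSTZ1 a log2 difference of 1.42 (SE 0.21) and UGT2B17 1.44 (SE 0.30). SULT2B1 in LWG against Con was 0.85 with limma on log2(FPKM + 1), where low levels are compressed by the pseudocount. With the replicate number as a block, 2 members had an unadjusted p under 0.05 in HWG against Con (4.88% of all genes). There were 3 in LWG against Con (7.82%) and 7 in HWG against LWG (13.0%), beside 2 and 5 in the main fit. On the slope 1 member was called (0.565%), with UGT2B17 at an adjusted p of 0.123 by edgeR. On the slope 3 members had an unadjusted p under 0.05 (18.3%). The block changed no other call. The geese of a number share only that number, with pair correlations from -0.282 to 0.377. The planned VIL1 covariate was not run, since VIL1 is no gene name of the table, and CDH17 took its place. The cause of these changes was not tested. With 4 geese a diet and a common biological coefficient of variation of 0.384, small differences could not be called. Larger estimates also went without a call, such as -1.81 for SULT2B1 in HWG against LWG (adjusted p = 0.338, edgeR). The lack of calls therefore does not show that the diets were alike. An unadjusted p under 0.05 is no call, and the counts may not give the number of read pairs.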

Other observations

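The families are larger in this tissue than their gene names show. Among the 51 LOC genes described as P450 of CYP1 to CYP4, GST, UGT, SULT or ALDH, several had mean levels above most members. The naming rule left these genes out. The P450 3A9-like gene LOC106032170 averaged 265 FPKM over the 12 libraries and ran from 40.3 to 695 FPKM, and the P450 2C16-like gene LOC106034197 averaged 178 FPKM and ran from 19.0 to 644 FPKM. The GST-like genes LOC106030436 and LOC106030438 averaged 316 and 202 FPKM, the sulfotransferase 1D1-like gene LOC106043981, which lies 628 bases from SULT1B1, 229 FPKM, and the UGT 1-1-like gene LOC106034582 117 FPKM. Several share a description, and whether reads were split among near copies is not known, so these levels are uncertain. These genes were chosen after their values were seen. They were among the genes tested, and their p-values are not reported here.

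Some LOC genes differed by more between the libraries with more GATA4 and those with more HOXA10 than any member did. The P450 2H1-like gene LOC106034087 had 54.3, 169.7, 27.2, 12.7, 2.23, 0.135 and 34.9 FPKM in the 7 libraries with more GATA4 (Con replicates 1 and 3, LWG replicates 3 and 4, HWG replicates 1, 2 and 3), against 0.535, 0.385, 10.2, 0.419 and 0.182 FPKM in the 5 with more HOXA10 (Con replicates 2 and 4, LWG replicates 1 and 2, HWG replicate 4). HWG replicate 2 was the lowest of all, and LWG replicate 1 the highest of the 5. The P450 2W1-like gene LOC106033533 went the other way, with a median of 12.9 FPKM (4.25 to 31.5) in libraries with more GATA4 and 76.1 FPKM (12.8 to 119.8) in those with more HOXA10. The GST-like gene LOC106030437 had a median of 70.7 FPKM (45.4 to 135.9) in libraries with more GATA4 and 10.8 FPKM (7.94 to 25.4) in those with more HOXA10. These ranges did not overlap, and the CPM of 1.18% of all tested genes did not either.

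The P450 1A4-like gene LOC106044188, of the family that the aryl hydrocarbon receptor induces in other birds and mammals, had 0.251, 0.0846, 0.483 and 0.26 FPKM in HWG libraries, 0.335, 0.0374, 3.30 and 5.58 FPKM in LWG libraries and 4.76, 0.851, 2.52 and 0.857 FPKM in Con libraries. All HWG values lay below all Con values (log2 fold change -3.10, SE 1.14, edgeR). The CPM of 2.31% of all tested genes did not overlap there, in either direction. In both Con and LWG, the geese with more GATA4 lay above the other geese of their diet. The table describes the gene as partial.

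Among the regulators, PPARA, a receptor for fatty acids, had 13.9, 8.70, 26.2 and 15.5 CPM in HWG libraries, against 55.0, 54.7, 24.5 and 56.2 CPM in LWG libraries, with a log2 fold change of -1.57 (SE 0.41, adjusted p = 0.338, edgeR). HWG replicate 3 lay just above LWG replicate 3, and the other values did not overlap. RXRA, the partner receptor of PPARA, had 16.1, 12.5, 14.6 and 14.5 CPM in HWG libraries, against 20.1, 24.4, 15.1 and 23.0 CPM in LWG libraries (log2 fold change -0.52, SE 0.19, adjusted p = 0.405, edgeR). AOX1, an aldehyde oxidase, had 209.8, 203.4, 392 and 189.7 CPM in HWG libraries, against 324, 599, 738 and 514 CPM in LWG libraries (log2 fold change -1.13, SE 0.34, adjusted p = 0.372, edgeR). ADH5, which oxidises formaldehyde bound to glutathione, had 329, 197.8, 169.8 and 209.7 CPM in HWG libraries, against 124.9, 155, 150.0 and 160.1 CPM in LWG libraries, with every HWG goose above every LWG goose (log2 fold change 0.62, SE 0.19, adjusted p = 0.376, edgeR). The CPM of 4.39% of all tested genes did not overlap between HWG and LWG geese, in either direction. PPARA, RXRA, AOX1 and ADH5 did not pass the test after adjustment.

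Other companion genes had an unadjusted p under 0.05 in HWG against LWG and no call. HNF4A, a factor of enterocytes and hepatocytes, had 148.3, 104.2, 320.7 and 152.7 CPM in HWG libraries, against 282.5, 259.8, 371.3 and 395.8 CPM in LWG libraries, and HWG replicate 3 lay inside the LWG range (log2 fold change -0.85, SE 0.37, adjusted p = 0.46, edgeR). The estimates were -1.65 (SE 0.67) for the quinone reductase NQO1, -0.83 (SE 0.37) for PAPSS2, which makes the sulfate donor of the SULT enzymes, and -0.80 (SE 0.34) for UGDH, with adjusted p from 0.434 to 0.464. In LWG against Con, PAPSS2, RXRA, AOX1 and the efflux pump ABCC5 had log2 fold changes of 0.85 (SE 0.37), 0.53 (SE 0.19), 0.80 (SE 0.33) and 0.69 (SE 0.28), with adjusted p from 0.652 to 0.727 by edgeR. In HWG against Con, PPARA and the uptake carrier SLCO2B1 had log2 fold changes of -1.28 (SE 0.40) and -0.42 (SE 0.16), both with an adjusted p of 0.939.

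On the ratio of GATA4 to HOXA10, the efflux pumps ABCC2 and ABCG2 had slopes of 0.20 (SE 0.051) and 0.11 (SE 0.031), and ABCC3 had one of -0.038 (SE 0.011), with adjusted p of 0.0509, 0.0824 and 0.0684 by edgeR. ABCC2 had 97.5, 203.9, 133.3, 276.9, 32.2, 25.7 and 215.9 CPM in the 7 libraries with more GATA4, in the order of geese given above, against 22.1, 27.9, 53.0, 106.8 and 7.07 CPM in the 5 with more HOXA10. HWG replicates 1 and 2 were again the low libraries among the 7. GCLC, of glutathione synthesis, UGP2, which makes UDP-glucose, XDH, the xanthine dehydrogenase, and AOX1 had slopes of 0.081 (SE 0.021), 0.051 (SE 0.014), 0.089 (SE 0.027) and 0.049 (SE 0.020), with adjusted p from 0.0535 to 0.188. The regulators NFE2L2, HNF4A and NR1H4, the bile acid receptor, had slopes of 0.035 (SE 0.012), 0.057 (SE 0.022) and -0.056 (SE 0.018), with adjusted p from 0.102 to 0.163. None of these was called.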
